A study of Mus musculus with 8 samples.

Results

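The comparison of transgenic with wild-type monocyte-derived macrophages of the mouse liver rests on 4 of the 8 libraries of the series, 2 from transgenic (TG) and 2 from wild-type (WT) mice. Its members are those 4 libraries, chosen by their labels, with every gene symbol in the count files. TG mice carry dnTGFβRII, a dominant-negative form of TGF-β receptor II that as background is known to be driven by a CD4 promoter in T cells, and they are used as a model of cholangitis. Both genotypes are on the C57BL/6 strain, and no further agent or allele is labelled for either. The labels do not say whether a library came from 1 mouse or a pool, so p-values measure only the spread between these libraries. The other 4 libraries are Kupffer cells of the same genotypes, and they enter the fit to help estimate the spread.

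Monocyte-derived macrophages (MoM) arise from blood monocytes that enter the liver and mature there. Classical monocytes carry Ly6C and the receptor CCR2, whereas nonclassical monocytes patrol the vessel wall. Kupffer cells are the resident macrophages of the sinusoids. Interferon gamma, which T and NK cells release, acts on macrophages and induces guanylate-binding proteins, immunity-related GTPases and antigen-presentation genes.

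Messenger RNA was measured as counts per gene symbol. Totals per library lay between 26190194 and 30308132 counts, which makes 1 count worth 0.0330 to 0.0382 CPM (counts per 1e6 counts), and 15366 to 17674 genes had a count. Of 24786 symbols, 15254 passed the filter on low counts and were tested. Levels are TMM-scaled CPM, and differences are log2 fold changes of TG over WT with their standard error (SE). A gene is said not to overlap when both TG libraries lie on the same side of both WT libraries.

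Macrophage genes were present in all 4 MoM libraries. Itgax, the integrin CD11c, stood at 1041 and 854 CPM in TG and at 586 and 920 CPM in WT. Itgam, the integrin CD11b, had 491 and 674 CPM in TG and 210 and 547 CPM in WT. Cd68, a lysosomal glycoprotein of macrophages, ranged from 258 to 393 CPM. None of these 3 genes separated the genotypes. Ccr2 had 216 and 460 CPM in TG and 128 and 186 CPM in WT, without overlap (1.11 ± 0.44). TG replicate 1 lay closer to WT replicate 2 than to TG replicate 2, so the size of this difference owes much to TG replicate 2. Ly6c2 was uneven: it had 517 CPM in TG replicate 2, but 33.4 CPM in TG replicate 1 and 15.3 and 43.8 CPM in WT. Tgfbr2, the endogenous receptor gene, stood at 249 and 178 CPM in TG and at 232 and 174 CPM in WT (0.07 ± 0.25), and counts per gene do not show the transgene.

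**Figure D1:**
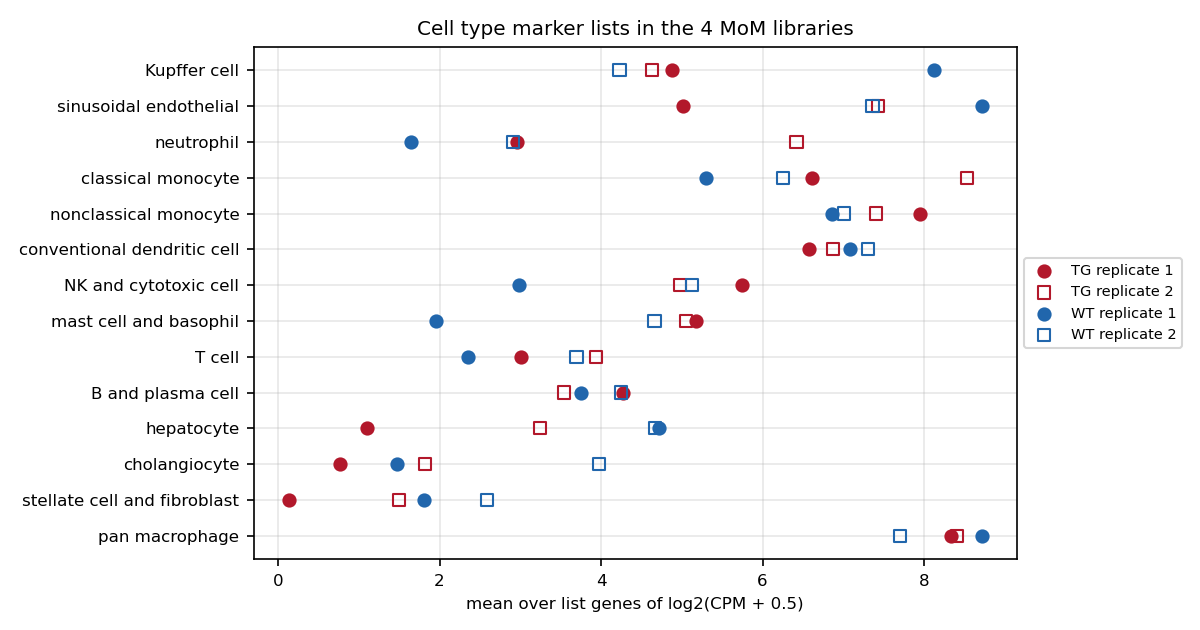
Mean over the genes of each cell type list of log2(CPM + 0.5) (horizontal axis) in the 4 MoM libraries, 1 point per library. WT replicate 1 lies furthest right for Kupffer cell and sinusoidal endothelial genes, and TG replicate 2 for neutrophil and classical monocyte genes.

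A pair of the MoM libraries stood apart in Kupffer cell, endothelial or neutrophil genes. The other pair was not free of such differences. TG replicate 1 had the highest sum of NK and cytotoxic genes (1232 CPM), and WT replicate 2 that of cholangiocyte genes (521 CPM). The 20 Kupffer cell genes summed to 12374 CPM in WT replicate 1, against 816 CPM in WT replicate 2 and 1375 and 1149 CPM in TG. Their median level was 31.8% of that in WT Kupffer cells in WT replicate 1, and 1.10% to 2.62% in the other 3 libraries. The 20 sinusoidal endothelial genes summed to 11035 CPM in WT replicate 1, against 4363 CPM in WT replicate 2 and 1183 and 4862 CPM in TG. Neutrophil genes summed to 5428 CPM in TG replicate 2, against 322 CPM in TG replicate 1 and 169 and 759 CPM in WT. None of the Kupffer cell or endothelial genes was at 0 in any MoM library, and of the 19 neutrophil genes only Stfa2l1 was, in WT replicate 1. In bulk RNA, fewer cells of a type and less RNA per cell cannot be told apart.

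Shifts are therefore described with and without WT replicate 1 and TG replicate 2, and the counts below also cover TG replicate 1 and WT replicate 2. A shift is a log2 fold change of at least 1 in either direction. It is said to rest on a library when leaving that library out brought it below 1 or turned its sign.

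No gene was called by edgeR's quasi-likelihood test at an adjusted p below 0.05 (0 of 15254, 0%), and the lowest adjusted p was 0.618, for a group of genes that included Ms4a4a. At an unadjusted p below 0.05 there were 987 genes (6.47%), 521 higher in TG (3.42%) and 466 lower (3.05%). DESeq2 on the same 8 libraries called 67 genes higher (0.439%) and 66 lower (0.433%). Without WT replicate 1 it called 38 higher (0.249%) and 15 lower (0.0983%), and without TG replicate 2 it called 66 higher (0.433%) and 154 lower (1.01%). On the 4 MoM libraries alone it called 82 higher (0.538%) and 116 lower (0.76%). The number of genes called thus changed with the tool and with the libraries kept. DESeq2 was not run without TG replicate 1 or WT replicate 2, and leaving a library out leaves 1 in its group. These counts therefore cannot show how far the calls depend on a given library. By the rule above, 8 of the 133 genes called on 8 libraries rest on WT replicate 1 and 2 on TG replicate 2. Of the 133 genes that DESeq2 called, 130 did not overlap between the genotypes, against 39.2% of all genes. With 2 libraries per genotype a call largely requires this, so the count does not back the calls.

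Without regard to size, 2922 genes (19.2%) lay higher in both TG libraries than in both WT libraries and 3057 (20%) lay lower. Shifts of at least 1 were fewer upward, with 665 genes (4.36%), than downward, with 2430 genes (15.9%), and 523 (3.43%) and 1679 (11%) of them also had no overlap. The downward shifts were mostly of weakly expressed genes. Their median level in the higher group was 2.93 CPM, and 1722 of them (70.9%) lay below 10 CPM there, as did 5742 of all 15254 genes. Upward shifts had a median of 10.6 CPM, and 325 of them (48.9%) lay below 10 CPM. Among the 9512 genes at 10 CPM or more, 340 shifted upward and 708 downward.

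Of the 2430 downward shifts, 875 (36.0%) rested on WT replicate 1, and 204 of these turned their sign without it. Another 392 (16.1%) rested on WT replicate 2, 779 (32.1%) on TG replicate 1 and 105 (4.32%) on TG replicate 2, with genes counted under each library they rest on. Of the 665 upward shifts, 153 (23.01%) rested on TG replicate 2, with 57 turning their sign, and 246 (37.0%) on WT replicate 1, with 0 turning. TG replicate 1 held 213 (32.0%) and WT replicate 2 held 56 (8.42%). Neither WT replicate 1 nor TG replicate 2 was needed by 345 upward shifts (51.9%) and 1519 downward shifts (62.5%). Of those, 311 and 1242 also had no overlap between the genotypes. Fewer shifts, 225 upward (33.8%) and 951 downward (39.1%), rested on none of the 4 MoM libraries.

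Downward shifts that rest on WT replicate 1 carried a Kupffer profile more often than genes at large. In 387 of these 875 genes (44.2%) the mean of WT Kupffer cells exceeded every MoM library, against 28.3% of all tested genes and 4.59% of the 392 genes that rest on WT replicate 2. These shares are a description, since genes of 1 library are not independent. Kupffer TG replicate 2 is rich in endothelial RNA, with a sum of 16380 CPM over the endothelial list while the other 3 Kupffer libraries summed to between 1182 and 1897 CPM. It was also the highest Kupffer library for NK and cytotoxic genes (728 CPM against 104 to 131 CPM) and cholangiocyte genes (74.4 CPM against 3.10 to 6.27 CPM). Neutrophil genes were lowest in it (148 CPM against 175 to 226 CPM), as were Kupffer cell genes. A high level in that library thus does not mark endothelial RNA alone. Of the 875 genes, 33.7% stood at least 4-fold higher in that library than in the other Kupffer libraries, against 11.3% of all tested genes. The same share was 48.7% of the 392 genes that rest on WT replicate 2 and 28.4% of the 951 downward shifts that rest on no single MoM library.

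**Figure D2:**
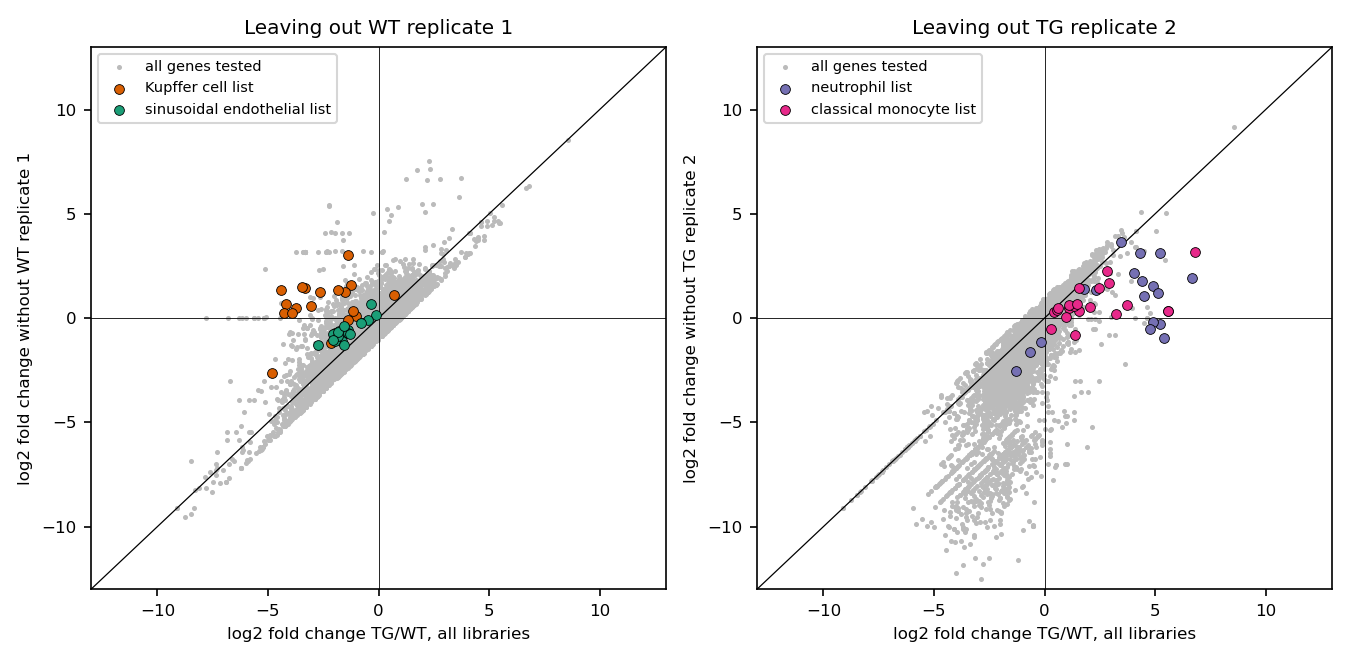
Log2 fold change of each tested gene with all libraries (horizontal axis) and without 1 library (vertical axis), for WT replicate 1 (left) and TG replicate 2 (right); the diagonal marks equal values. Most Kupffer cell genes move from below 0 to above 0 on the left, and most neutrophil genes move toward 0 on the right. The cloud of values below -5 on the right holds genes at or near 0 in TG replicate 1, whose fitted size depends on the prior count.

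The genes with the smallest p and higher levels in TG included Ms4a4a and Gda. Ms4a4a (chromosome 19, 11375523 to 11392790, GRCm38), a membrane protein of the MS4A family of macrophages, had 60.0 and 119 CPM in TG and 10.7 and 15.99 CPM in WT. Its log2 fold change was 2.74 ± 0.39, and it was 1.91 without WT replicate 1 and TG replicate 2. Gda (chromosome 19, 21391307 to 21473445), guanine deaminase of purine breakdown, had 223 and 438 CPM in TG and 34 and 59.1 CPM in WT (2.83 ± 0.51). Both genes thus stood several fold above WT in each TG library, and neither rests on a single library.

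Smpdl3b (chromosome 4, 132732966 to 132757252), a lipid-modifying phosphodiesterase at the membrane that dampens Toll-like receptor signalling, had 213 and 106 CPM in TG and 20.5 and 27.4 CPM in WT (2.73 ± 0.44, and 2.96 without both libraries). In Kupffer cells it stood lower in TG, with 9.22 and 5.09 CPM against 15.8 and 14.8 CPM in WT. The difference between these genotype effects was 3.83 ± 0.61 (unadjusted p = 0.000613, adjusted p = 0.626 by edgeR). It does not pass the correction over all genes.

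Fbxl5 (chromosome 5, 43744615 to 43821638), the iron-sensing subunit of a ubiquitin ligase, had 102 and 109 CPM in TG and 49.9 and 45.8 CPM in WT (1.14 ± 0.19). Camk2d, a calcium-dependent kinase, had 123 and 102 CPM in TG and 45.4 and 39.2 CPM in WT (1.41 ± 0.25). Libraries of each genotype lay close together for these genes. The UDP-glucuronosyltransferase symbols Ugt1a2, Ugt1a10 and Ugt1a6b share exons, and their nearly equal counts (47.4, 47.3 and 47.7 CPM in TG replicate 1) are not separate measurements. Each stood at 51.0 to 51.2 CPM in TG replicate 2 and at 19.3 to 23.7 CPM in WT (1.20 ± 0.21).

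**Figure D3:**
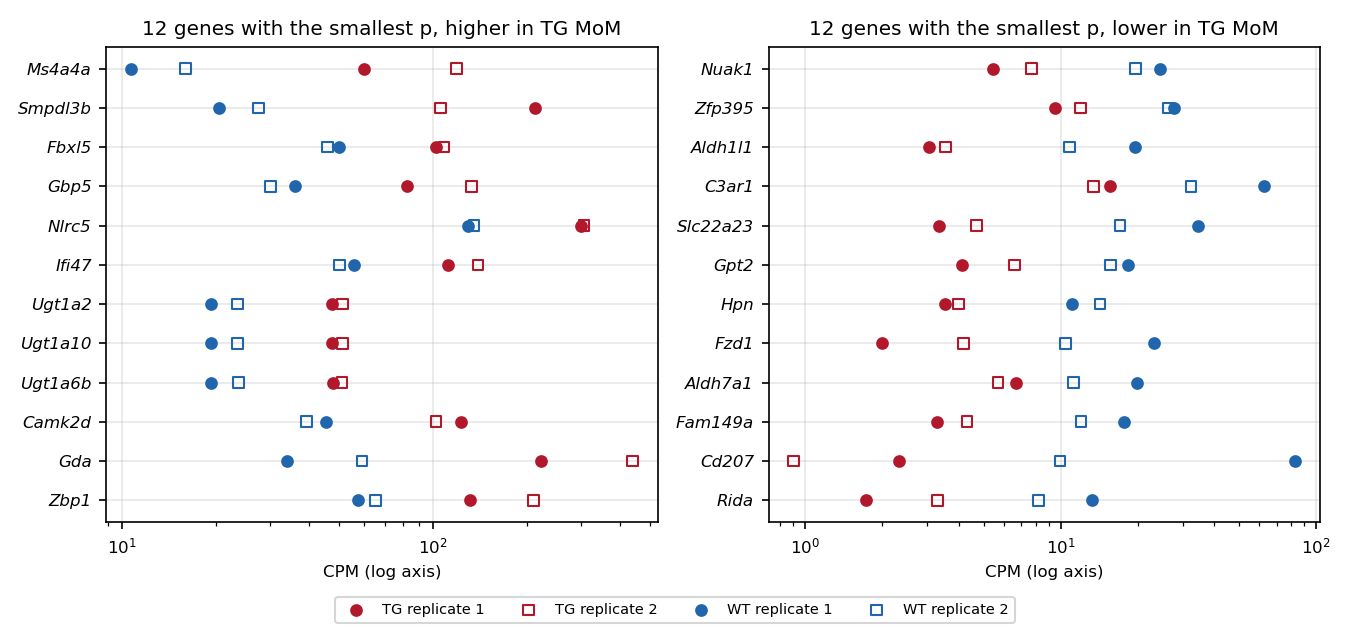
CPM on a log axis, 1 point per library, of the 12 genes per direction with the smallest p among those whose genotypes do not overlap and whose higher group reaches 10 CPM. Non-overlap is part of how these genes were chosen; Nlrc5 lies at 298 and 306 CPM in TG and 129 and 135 CPM in WT.

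Interferon gamma target genes stood higher in TG as a group. Of 26 such genes, 24 had a log2 fold change above 0, against 46.7% of all genes, and 17 lay higher in both TG libraries without overlap, against 19.2%. The list held 13 genes at an unadjusted p below 0.05, all of them higher, against 3.42% of all genes, and 0 were called by edgeR and 3 by DESeq2. Its median log2 fold change was 0.98, against -0.04 for all genes. The median was 0.63 without TG replicate 2, 1.20 without WT replicate 1 and 0.81 without both. Of the 12 members shifted by at least 1, 7 rest on TG replicate 2 and 2 on WT replicate 1.

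Gbp5 (chromosome 3, 142493978 to 142522344), a guanylate-binding GTPase that promotes inflammasome assembly, had 82.2 and 133 CPM in TG and 36.1 and 30.02 CPM in WT (1.70 ± 0.28). Gbp4, of the same family, had 146 and 252 CPM in TG and 96.6 and 73.6 CPM in WT (1.22 ± 0.31, but 0.78 without TG replicate 2). Gbp5 kept a shift of at least 1 in the absence of any single MoM library, and Gbp4 rests on TG replicate 2. Guanylate-binding genes are close paralogs, so their counts may share reads.

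Ifi47 (chromosome 11, 49076587 to 49096974), an immunity-related GTPase, had 112 and 139 CPM in TG and 55.6 and 50.1 CPM in WT (1.25 ± 0.21). Igtp, another of these GTPases, had 77.1 and 104 CPM in TG and 40.2 and 39.5 CPM in WT (1.19 ± 0.30). Tgtp2, a GTPase with a near-identical neighbour, had 145 and 189 CPM in TG and 83.1 and 80.6 CPM in WT (1.03 ± 0.28). For these 3 genes the WT libraries agreed closely and both TG libraries stood above them. Without TG replicate 2 the value was 1.08 for Ifi47, 0.95 for Igtp and 0.83 for Tgtp2. Cd274, the checkpoint ligand PD-L1, had 446 and 448 CPM in TG and 146 and 240 CPM in WT (1.21 ± 0.37, and 0.90 without WT replicate 1). Zbp1, a sensor of Z-form nucleic acids, had 132 and 210 CPM in TG and 57.4 and 65.2 CPM in WT (1.48 ± 0.27). Ifi47 and Zbp1 are not on the interferon gamma list, and Zbp1 is on the type I interferon list.

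Shown next are the 250 bases before the RefSeq start of 4 of these genes. The genes stood higher together, and interferon acts through known promoter elements. For Gbp5 the RefSeq start lies inside the gene span given above, which comes from GENCODE M21. Sequences are RefSeq promoters on GRCm38.p6, printed 5′ to 3′ on the strand of the gene, for Gbp5 (chr3:142496684-142496933, plus strand), Igtp (chr11:58199306-58199555, plus), Tgtp2 (chr11:49064213-49064462, minus) and Ifi47 (chr11:49076337-49076586, plus). Capitals mark matches to TTCNNNGAA, the pattern of gamma-activated sites, or to GAAA followed after any 2 bases by another GAAA (the paired GAAA pattern), a pattern of interferon-stimulated response elements.
Gbp5: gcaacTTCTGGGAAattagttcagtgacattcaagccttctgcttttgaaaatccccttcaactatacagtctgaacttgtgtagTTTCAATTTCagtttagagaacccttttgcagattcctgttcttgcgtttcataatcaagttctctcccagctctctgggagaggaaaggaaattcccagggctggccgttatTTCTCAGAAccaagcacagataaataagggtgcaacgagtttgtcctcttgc
Igtp: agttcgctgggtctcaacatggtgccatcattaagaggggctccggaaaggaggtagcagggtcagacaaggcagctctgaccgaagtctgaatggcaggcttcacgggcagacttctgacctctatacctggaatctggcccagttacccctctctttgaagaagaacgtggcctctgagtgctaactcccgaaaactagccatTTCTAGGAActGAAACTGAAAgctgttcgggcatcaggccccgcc
Tgtp2: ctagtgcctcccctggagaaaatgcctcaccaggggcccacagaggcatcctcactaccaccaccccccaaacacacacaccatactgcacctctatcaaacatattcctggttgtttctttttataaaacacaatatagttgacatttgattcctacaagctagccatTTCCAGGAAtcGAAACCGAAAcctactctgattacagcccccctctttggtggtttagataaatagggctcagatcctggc
Ifi47: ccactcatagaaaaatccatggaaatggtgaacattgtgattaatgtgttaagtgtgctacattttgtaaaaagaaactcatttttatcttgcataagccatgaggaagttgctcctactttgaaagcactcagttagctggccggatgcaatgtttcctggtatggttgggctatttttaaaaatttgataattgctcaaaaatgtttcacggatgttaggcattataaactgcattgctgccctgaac

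Igtp and Tgtp2 each hold 1 match to each pattern, a few bases apart and in the part of the window nearer the start site, while Gbp5 holds 2 matches to TTCNNNGAA and 1 to the paired GAAA pattern. The Ifi47 window holds 0 of either. Both strands were searched: TTCNNNGAA is its own reverse complement, and TTTC followed after 2 bases by TTTC was searched for the paired pattern. Of the 26 list members, 16 were in the promoter table, and 8 of these (50%) held TTCNNNGAA and 11 (68.8%) the paired GAAA pattern. Among all 27025 genes with a promoter window, 8.13% and 3.46% did. The list is made of known interferon targets, and a match is a description of letters, not of binding.

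**Figure D4:**
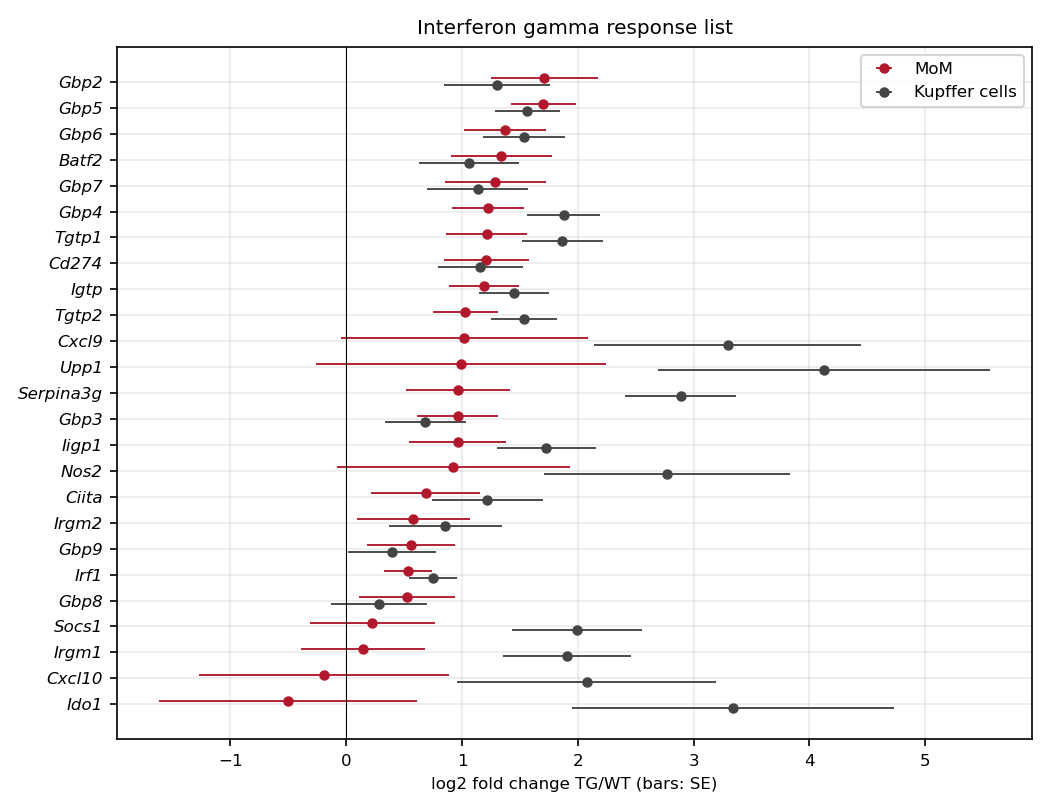
Log2 fold change of TG over WT (horizontal axis) for 25 of the interferon gamma response genes, in MoM and in Kupffer cells, with bars of 1 SE from the edgeR fit. In MoM 23 of the 25 points lie above 0 and in Kupffer cells 25 do; Cxcl10 and Ido1 are the genes below 0 in MoM.

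Antigen presentation genes of class I stood slightly higher in TG. Of 17 genes, 16 had a log2 fold change above 0, against 46.7% of all genes, and 11 lay higher without overlap, against 19.2%. The median was 0.44, and it was 0.27 without TG replicate 1 and 0.73 without both WT replicate 1 and TG replicate 2, with 0 called by edgeR. Nlrc5 (chromosome 8, 94434356 to 94527272), the transactivator of MHC class I genes, had 298 and 306 CPM in TG and 129 and 135 CPM in WT (1.19 ± 0.20). Means were 302 ± 5.52 CPM in TG and 132 ± 4.29 CPM in WT (SD, n = 2), and the value stayed between 1.14 and 1.23 whichever of the MoM libraries was left out, both together included. Tap1, a peptide transporter of the endoplasmic reticulum, had 624 and 468 CPM in TG and 339 and 312 CPM in WT (0.75 ± 0.24). Its partner Tap2 had 386 and 290 CPM in TG and 263 and 218 CPM in WT (0.49 ± 0.23). MHC class II genes had a median of 0.03, between -0.13 and 0.28 with 1 MoM library left out, and 1 of 12 lay higher without overlap, against 19.2% of all genes.

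Pattern recognition receptors followed the same direction, with 16 of 20 above 0 (46.7% of all genes), 10 higher without overlap (19.2%) and a median of 0.83. It was 0.48 without TG replicate 2 and 0.57 without both libraries. Nod2, a cytosolic sensor of bacterial muramyl peptides, had 142 and 84.2 CPM in TG and 26 and 41.02 CPM in WT (1.75 ± 0.46). Tlr13, a receptor for bacterial ribosomal RNA, had 168 and 246 CPM in TG and 73.5 and 106 CPM in WT (1.20 ± 0.28, but 0.90 without TG replicate 2). Myd88, the adaptor of these receptors, had 163 and 184 CPM in TG and 112 and 108 CPM in WT (0.66 ± 0.22). Of the 4 genes below 0, 1 lay lower without overlap: Tlr3, a receptor for double-stranded RNA, with 8.32 and 21.7 CPM in TG and 45.1 and 43.4 CPM in WT (-1.56 ± 0.58).

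Nonclassical monocyte genes were above 0 in 16 of 18 cases, against 46.7% of all genes, and 11 lay higher without overlap, against 19.2%. Their median of 0.85 was 0.53 without TG replicate 1 and 1.07 without both WT replicate 1 and TG replicate 2. Ace (chromosome 11, 105967945 to 105989964), the angiotensin-converting enzyme, had 1255 and 500 CPM in TG and 176 and 294 CPM in WT (1.90 ± 0.48). Il17ra, a receptor for interleukin 17, had 309 and 247 CPM in TG and 136 and 159 CPM in WT (0.92 ± 0.27). Dusp16, a phosphatase of the JNK pathway, had 470 and 241 CPM in TG and 72.7 and 166 CPM in WT (1.57 ± 0.63). TG replicate 1 was the highest library for each of these 3 genes. NK and cytotoxic cell genes were also highest in TG replicate 1, where they summed to 1232 CPM, while the other 3 summed to 224, 878 and 927 CPM. One of them, perforin (Prf1), had 78.7 CPM there and 3.61 to 15.99 CPM elsewhere, and the part of such cells in these values was not tested.

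Classical monocyte genes depended on TG replicate 2. All 20 had a log2 fold change above 0, 12 lay higher without overlap, against 19.2% of all genes, and the median was 1.52. It was 0.52 without TG replicate 2 and 0.12 without both libraries. In 10 of the 15 members shifted by at least 1 the shift rests on that library, and in 6 on WT replicate 1. Vcan, the proteoglycan versican, had 8.77 and 211 CPM in TG and 0.618 and 1.35 CPM in WT (6.80 ± 1.81, and 3.15 without TG replicate 2). Plac8, a cysteine-rich protein of monocytes, had 746 and 879 CPM in TG and 258 and 293 CPM in WT (1.56 ± 0.36, and 1.35 without both). Vcan thus took most of its size from 1 library, whereas Plac8 did not.

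Neutrophil granule genes had a median of 4.49, the highest of the lists, and of 19 tested 12 lay higher without overlap, against 19.2% of all genes. The median was 1.19 without TG replicate 2. By at least 1, 16 members shifted upward and 1 downward, and 5 of these shifts rest on TG replicate 2. Ngp (chromosome 9, 110419747 to 110423012), a neutrophil granule protein, had 9.64 and 1584 CPM in TG and 5.93 and 32.1 CPM in WT (5.39 ± 2.13), and its sign turned without TG replicate 2 (-0.98). Camp, the precursor of an antimicrobial peptide, had 1.88 and 170 CPM in TG and 1.67 and 2.99 CPM in WT. Lcn2, an iron-scavenging lipocalin, had 4.29 and 330 CPM in TG and 1.48 and 10.8 CPM in WT, and Ltf, lactoferrin, had 8.73 and 584 CPM in TG and 5.96 and 13.8 CPM in WT. These 4 genes were picked for a large ratio of TG replicate 2 to TG replicate 1. They were high in TG replicate 2 alone, and TG replicate 1 lay among the WT values.

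Some genes of the same list stood higher in both TG libraries. Csf3r, the receptor for the growth factor G-CSF, had 139 and 221 CPM in TG and 65.0 and 40.8 CPM in WT (1.77 ± 0.37, and 1.40 without TG replicate 2). Mpo, myeloperoxidase, had 10.1 and 36.5 CPM in TG and 0.618 and 1.71 CPM in WT (4.32 ± 1.00, and 3.11 without TG replicate 2). S100a9, a subunit of calprotectin, had 28.6 and 842 CPM in TG and 5.59 and 19.5 CPM in WT (5.12 ± 1.54, and 1.19 without TG replicate 2). Chil3, a chitinase-like protein, had a log2 fold change of 5.59, and 0.32 without that library. Neutrophil genes also moved with Ccr2 and Ly6c2 in TG replicate 2, and their part in those values was not tested.

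Some abundant genes rested on neither WT replicate 1 nor TG replicate 2. Gvin1, a very large interferon-inducible GTPase, had 1504 and 1922 CPM in TG and 412 and 624 CPM in WT (1.73 ± 0.33), but it may share reads with a paralog. Sik1, a salt-inducible kinase, had 1008 and 490 CPM in TG and 305 and 313 CPM in WT (1.28 ± 0.37, but 0.66 without TG replicate 1). Ptpn1, a tyrosine phosphatase that acts on cytokine receptor kinases, had 611 and 559 CPM in TG and 279 and 226 CPM in WT (1.21 ± 0.39). All 3 stood higher in each TG library than in each WT library.

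Kupffer cell genes turned their direction without 1 library. Of 20, 19 had a log2 fold change below 0 with a median of -2.40, and without WT replicate 1 the median was 0.63. Clec4f (chromosome 6, 83644542 to 83656187), a lectin of Kupffer cells, had 125 and 45.6 CPM in TG but 3599 and 33.3 CPM in WT. Its log2 fold change of -4.41 became 1.36 without WT replicate 1. Cd5l, a secreted inhibitor of apoptosis, had 170 and 89.2 CPM in TG and 2584 and 47.2 CPM in WT, and -3.34 became 1.46. Marco (chromosome 1, 120474538 to 120505024), a scavenger receptor for bacteria, had 84.2 and 52.7 CPM in TG and 345 and 8.33 CPM in WT, and -1.37 became 3.04. In these 3 genes WT replicate 1 was the highest and WT replicate 2 the lowest of the 4 libraries.

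Further genes with the same pattern were Cd163, the haemoglobin scavenger receptor, with 740 CPM in WT replicate 1 and 12.1 to 26.8 CPM elsewhere, and Folr2, a folate receptor, with 398 CPM against 6.98 to 15.5 CPM. C6, a component of the complement attack complex, had 349 CPM against 5.79 to 16.5 CPM. Pcolce2 had 56.9 CPM against 0.836 to 1.66 CPM, and Kcnj16, a potassium channel, 22.6 CPM against 0.208 to 0.452 CPM. Timd4, a receptor for dead cells, had 242 CPM against 8.43 to 22.6 CPM, and Vsig4, a complement receptor, 712 CPM against 19.98 to 31.6 CPM. For each of these 7 genes the downward shift rests on WT replicate 1, in which Kupffer cell genes are high as a list. Adgre1, the antigen F4/80, had 720 CPM in that library against 182 to 298 CPM elsewhere, and its log2 fold change of -0.90 became 0.41 without it.

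Of the 20 Kupffer cell genes, 3 lay lower in TG without overlap, against 20% of all genes: Cd207, Cdh5 and Xlr, the last 2 named after their values were seen. The log2 fold change of Cdh5, the adhesion molecule VE-cadherin, was -1.95 and became -0.71 without WT replicate 1; its TG replicate 2 and WT replicate 2 both rounded to 164 CPM. That of Xlr was -2.13 and became -1.21 without the same library. Cd207 (chromosome 6, 83671215 to 83677857), the lectin langerin, had 2.33 and 0.903 CPM in TG and 82.7 and 9.94 CPM in WT. Its log2 fold change was -4.84 ± 1.14, and it was -2.62 without WT replicate 1 and -2.09 without both libraries. DESeq2 called it (adjusted p = 0.00027), and it called 3 genes of this list lower, Cd163 among them. Kcnj16, which is not on the list, was also called lower.

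Lists that overlap in biology with Kupffer cells followed the same library, and most share genes with the Kupffer cell list. The scavenger list shares Marco, Cd163 and Timd4, the iron list Cd163 and others, and the LXR list a single gene. The lysosome list shares none. The medians of the lists with shared genes are thus partly the same genes counted again. Scavenger and dead cell clearance genes had a median of -1.37, which was 0.28 without WT replicate 1, and 8 of the 10 members shifted downward rest on it. Mertk, a receptor for dead cells, had 32.4 and 58.2 CPM in TG and 393 and 57.0 CPM in WT (-2.31 ± 0.84, and -0.33 without WT replicate 1). Iron and heme genes moved from -0.49 to 0.33, and genes driven by the sterol receptor LXR from -0.19 to 0.30. Apoe, a lipid carrier, had 1536 and 715 CPM in TG and 8778 and 1163 CPM in WT (-2.14 ± 0.96, and -0.05 without WT replicate 1). Lysosome genes moved from -0.12 to 0.30. In each of these 4 lists the median changed its sign with that library. Apoc1, another lipid carrier, had 4.48 and 6.04 CPM in TG and 144 and 10.7 CPM in WT, and -3.88 ± 1.10 became -1.03.

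Sinusoidal endothelial genes were below 0 in 20 of 20 cases, with a median of -1.66, and 8 lay lower without overlap, against 20% of all genes. The median was -0.80 without TG replicate 1, -0.74 without WT replicate 1, -3.49 without TG replicate 2 and -2.46 without both. In 11 of the 16 members shifted downward by at least 1 the shift rests on WT replicate 1. Stab1, a scavenger receptor of sinusoids, had 70.5 and 325 CPM in TG and 1299 and 332 CPM in WT (-2.04 ± 1.20). Cldn5, a tight-junction protein, had 7.08 and 15.1 CPM in TG and 120 and 27.4 CPM in WT (-2.73 ± 1.44). Aqp1, a water channel, had 68.0 and 484 CPM in TG and 1574 and 599 CPM in WT (-1.98 ± 1.75), and Ltbp4, a matrix protein that binds latent TGF-β, had 25.8 and 121 CPM in TG and 848 and 230 CPM in WT. Within these 4 genes TG replicate 1 was the lowest and WT replicate 1 the highest library. For Stab1, TG replicate 2 and WT replicate 2 differed by little.

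Hepatocyte genes stood lower in TG without overlap in 18 of 19 cases, against 20% of all genes, with a median of -2.58. The median was -2.64 without WT replicate 1 and -2.44 without WT replicate 2, but -1.81 without TG replicate 1, -4.88 without TG replicate 2 and -4.58 without both WT replicate 1 and TG replicate 2. Alb, albumin, had 8.21 and 134 CPM in TG and 407 and 445 CPM in WT (-2.58 ± 2.09). Hepatocyte genes summed to 252 and 466 CPM in TG and to 1547 and 1178 CPM in WT. Cholangiocyte genes had a median of -3.37, which was -5.37 without TG replicate 2 and -0.41 without WT replicate 2, where they summed to 521 CPM against 63.4 to 118 CPM. The cholangiocyte genes Krt19, Sox9, Cldn7, Cftr and Prom1 were at 0 in TG replicate 1, and fitted values of such genes depend on the prior count. Clu, clusterin, had 3.84 and 32.5 CPM in TG and 52.2 and 545 CPM in WT (-4.04 ± 2.09, and -1.52 without WT replicate 2).

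The genes with the smallest p and lower levels in TG were of modest abundance. Nuak1, a kinase related to AMPK, had 5.46 and 7.71 CPM in TG and 24.5 and 19.6 CPM in WT (-1.74 ± 0.27). Zfp395, a zinc finger protein, had 9.52 and 11.9 CPM in TG and 27.9 and 26.4 CPM in WT (-1.34 ± 0.23). C3ar1 (chromosome 6, 122847138 to 122856161), the receptor for complement fragment C3a, had 15.5 and 13.5 CPM in TG and 62.7 and 32.4 CPM in WT (-1.71 ± 0.32, and -1.06 without both libraries). All 3 stood lower in each TG library and rest on no single library. Slc22a23, an organic ion transporter, had 3.35 and 4.69 CPM in TG and 34.4 and 17.1 CPM in WT (-2.68 ± 0.51). Fzd1, a receptor for Wnt ligands, had 2.00 and 4.17 CPM in TG and 23.1 and 10.4 CPM in WT (-2.44 ± 0.56).

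Several of these genes encode enzymes that hepatocytes also make. Aldh1l1, an enzyme of folate metabolism, had 3.05 and 3.54 CPM in TG and 19.6 and 10.8 CPM in WT (-2.21 ± 0.41). Gpt2, an alanine transaminase, had 4.10 and 6.60 CPM in TG and 18.3 and 15.7 CPM in WT (-1.67 ± 0.33). Hpn, the serine protease hepsin, had 3.54 and 3.99 CPM in TG and 11.1 and 14.3 CPM in WT (-1.75 ± 0.40). Aldh7a1, an aldehyde dehydrogenase, Fam149a and Rida, an imine deaminase, had log2 fold changes of -1.33 ± 0.31, -1.97 ± 0.46 and -2.09 ± 0.51. Aldh7a1 was -0.86 without WT replicate 1, below a shift of 1. Hepatocyte genes also summed lower in TG (252 and 466 CPM) than in WT (1547 and 1178 CPM). Within WT that sum was higher in replicate 1, as were Aldh1l1 and Gpt2 but not Hpn. The part of hepatocyte RNA in these 6 genes was not tested.

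Conventional dendritic cell genes as a list had a median of -0.24 (-0.54 without both libraries), with 16 of 20 below 0 and 6 lower without overlap, against 20% of all genes. Among these 6 were Xcr1, Clec9a and Tlr3, named as the 3 members of the list with the smallest p. They are genes of the cross-presenting subset, and its other genes on the list are not given here. Xcr1 (chromosome 9, 123852315 to 123862029), its chemokine receptor, had 4.59 and 13.1 CPM in TG and 65.0 and 51.6 CPM in WT (-2.72 ± 0.85, and -3.49 without both libraries). Clec9a, its receptor for dead cells, had 39.4 and 41.5 CPM in TG and 120 and 73.4 CPM in WT (-1.26 ± 0.34, but -0.86 without WT replicate 1). Tlr3, given above, also belongs to this subset. The summed level of the list was 4493 and 4394 CPM in TG and 4380 and 5508 CPM in WT.

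Nr1d1 (chromosome 11, 98767932 to 98775333), the clock repressor REV-ERBα, had 12.1 and 15.8 CPM in TG and 89.3 and 42.4 CPM in WT (-2.24 ± 0.58, and -1.60 without WT replicate 1). Nfil3, a transcription factor that clock proteins control, had 514 and 298 CPM in TG and 107 and 121 CPM in WT (1.83 ± 0.68). Per1, a clock gene, had 678 and 657 CPM in TG and 413 and 491 CPM in WT (0.56 ± 0.21). These genes stood apart without overlap in opposite directions. The clock list had a median of -0.14, which was -0.37 without WT replicate 1 and 0.31 without WT replicate 2. Without overlap, 4 of its 18 genes lay higher and 6 lower, against 19.2% and 20% of all genes, and the hour of collection is not in the labels.

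Matrix and wound repair genes had a median of -0.22, with 8 of 23 lower and 3 higher without overlap, against 20% and 19.2% of all genes. The median was -0.05 without TG replicate 1, -0.81 without TG replicate 2 and -0.90 without both WT replicate 1 and TG replicate 2. Timp2, an inhibitor of matrix proteases, had 17.7 and 15.7 CPM in TG and 83.0 and 41.3 CPM in WT (-1.90 ± 0.47, and -1.23 without both libraries). The growth factors Pdgfc and Pdgfa were weak: Pdgfc had 2.48 and 1.74 CPM in TG and 18.0 and 5.89 CPM in WT, and Pdgfa had 0.753 and 0.625 CPM in TG and 4.29 and 1.83 CPM in WT. Both kept a shift of at least 1 without WT replicate 1 (-1.48 and -1.41). TGF-β signalling genes had a median of -0.06, with 5 of 22 higher and 4 lower without overlap, near the 19.2% and 20% of all genes, and its sign varied with the library left out (-0.15 to 0.14). Tgfbi, a matrix protein induced by TGF-β, had 560 and 794 CPM in TG and 303 and 323 CPM in WT (1.11 ± 0.38). Its highest value was that of TG replicate 2. Smad4, the shared signal carrier of the pathway, had 95.6 and 76.7 CPM in TG and 62.7 and 63.8 CPM in WT (0.44 ± 0.18).

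Chemokine genes had a median of -0.52, with 5 of 20 lower and 0 higher without overlap, against 20% and 19.2% of all genes. The median was -0.11 without TG replicate 1, -1.28 without TG replicate 2 and -1.55 without both WT replicate 1 and TG replicate 2. Pf4, a platelet and macrophage chemokine, had 0.301 and 0.486 CPM in TG and 3.40 and 3.19 CPM in WT (-3.05 ± 0.45). Ccl7, which attracts monocytes, had 1.05 and 4.72 CPM in TG and 23.5 and 13.6 CPM in WT (-2.68 ± 0.93), and Ccl12, a related ligand, had 0.376 and 0.590 CPM in TG and 1.73 and 1.87 CPM in WT. Pf4 and Ccl12 stayed below 4 CPM in all 4 libraries, whereas Ccl7 exceeded 10 CPM in both WT libraries. Inflammatory cytokine genes had a median of 0.31, which took the opposite sign without TG replicate 2 (-0.22) and without both (-0.46). Type I interferon genes had a median of -0.17, with 2 of 25 higher and 3 lower without overlap, below the 19.2% and 20% of all genes, and the median was 0.13 without WT replicate 1, 0.28 without TG replicate 1 and -0.59 without TG replicate 2.

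Complement and Fc receptor genes had a median of -0.06, which was 0.35 without WT replicate 1 and -0.53 without TG replicate 2. Fcgr4, an activating receptor for IgG, had 351 and 229 CPM in TG and 146 and 55.0 CPM in WT (1.53 ± 0.49). C3, the central complement component, had 397 and 900 CPM in TG and 231 and 213 CPM in WT (1.55 ± 0.45, but 0.84 without TG replicate 2). Cybb, the catalytic subunit of the phagocyte oxidase, had 1359 and 1615 CPM in TG and 767 and 742 CPM in WT (0.98 ± 0.38). Glycolysis genes lay higher without overlap in 10 of 18 cases, against 19.2% of all genes, with a median of 0.36, and Slc2a1, the glucose transporter GLUT1, had 212 and 146 CPM in TG and 74.4 and 83.8 CPM in WT (1.18 ± 0.33, but 0.89 without TG replicate 1). Il4ra, a receptor chain for interleukin 4, had 375 and 336 CPM in TG and 196 and 216 CPM in WT (0.79 ± 0.22), Pparg, a lipid-sensing nuclear receptor, had 54.0 and 25.5 CPM in TG and 17.5 and 14.9 CPM in WT (1.30 ± 0.36, but 0.66 without TG replicate 1), and Pdcd1lg2, the checkpoint ligand PD-L2, had 26.7 and 22.5 CPM in TG and 7.94 and 12.2 CPM in WT (1.29 ± 0.31).

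Housekeeping groups differed little. Ribosomal protein genes had a median of 0.09, with 0 of 22 without overlap in either direction, against 19.2% higher and 20% lower of all genes. Cell cycle genes had 0.08, with 3 of 26 higher and 1 lower without overlap, and oxidative phosphorylation genes had -0.03, with 1 of 22 lower. WT replicate 1 was low in mast cell and basophil genes, which summed to 413 CPM in it and to 932 to 1580 CPM in the other 3 libraries.

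**Figure D5:**
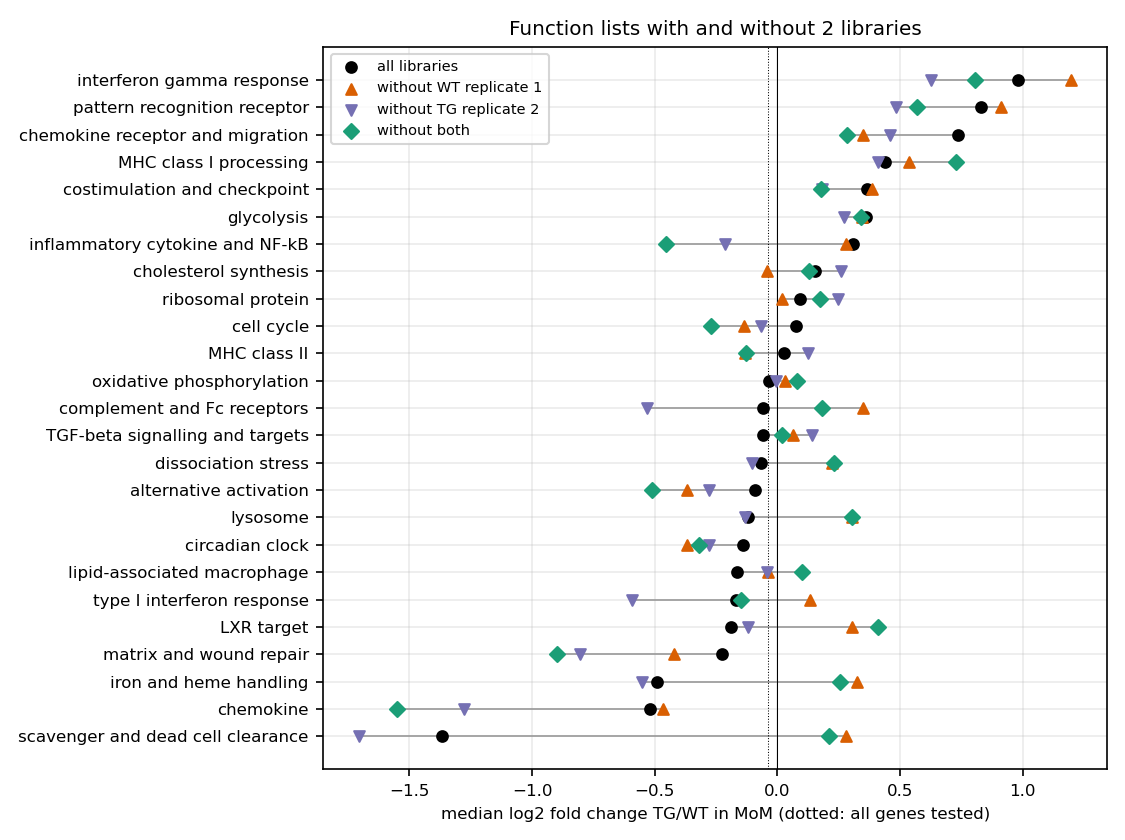
Median log2 fold change of TG over WT in MoM (horizontal axis) for each function list, with all libraries and without WT replicate 1, TG replicate 2 or both; the dotted line marks the median of all genes. The scavenger and dead cell clearance median moves from -1.37 to 0.28 without WT replicate 1, and that of interferon gamma genes lies between 0.63 and 1.20 in these fits.

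Whether the genotype effect differs between MoM and Kupffer cells was tested for each gene as an interaction, and no gene was called by edgeR (0 of 15254, 0%), with 980 at an unadjusted p below 0.05 (6.42%). DESeq2 called 51. The interferon gamma list had a median of 0.98 in MoM and 1.53 in Kupffer cells, and the MHC class II list 0.03 and 1.22. Gbp5 had 1.70 ± 0.28 in MoM and 1.56 ± 0.28 in Kupffer cells, with a difference of 0.14 ± 0.39, and Ifi47 had a difference of 0.08 ± 0.30. Fbxl5 had 1.14 ± 0.19 in MoM and -0.25 ± 0.18 in Kupffer cells, and Xcr1 had -2.72 ± 0.85 and 2.84 ± 0.86. The Xcr1 value in Kupffer cells comes with 28.1 CPM in the Kupffer TG library that is rich in RNA of endothelial and other cells. It had 1.61 to 5.93 CPM in the others. No gene therefore passed the edgeR test of a difference between the subsets.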

How the data were processed

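Polyadenylated RNA of hepatic macrophages was sequenced in 8 libraries, whose titles gave the groups and replicates. Alignment was to mm10 (GRCm38) with STAR 2.5.2b, per the submitters' processing notes. How reads were assigned to genes, and with which annotation or strand setting, is not given in the sources used here. Raw counts per gene symbol, not normalized by the authors, make up the deposited files. Low counts (below 20) were even numbers in 65.0% to 68.0%, as when both mates of a fragment are counted, and 69 tested genes had counts identical to those of another tested gene. A further deposited table of the authors' own comparisons was not used here.

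All 8 libraries were fitted in 4 groups with edgeR 4.0.16 (R 4.3.3): filterByExpr, TMM and the quasi-likelihood F-test, with Benjamini-Hochberg adjustment over 15254 genes and a threshold of 0.05. The common biological coefficient of variation was 0.507. The SE is the absolute log2 fold change divided by the square root of F. Alternatives were DESeq2 1.42.0, size factors, no filter, a replicate block, only the 4 MoM libraries, and each library left out. The edgeR fit was run on simulated counts with known changes, in which no library differed in the RNA of other cells. That run does not show how the fit behaves where a library differs in this way. Positions are from GENCODE M21, in which 14980 tested symbols matched 1 gene. Leaving out a library kept the same 15254 genes.

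The comparison and the 42 gene lists (752 entries, 9 not tested) were chosen with earlier results of these data known. Named genes are the 12 with the smallest p in each direction at 10 CPM or more without overlap, up to 3 members with the smallest p per list, genes with the largest ratio between the replicates for WT replicate 1 and TG replicate 2, abundant shifted genes that rest on neither, and label checks. The rule skips predicted genes and receptor segments, and some members of the lists are not reported here on their own. Lists are described by counts and medians, with no set test. Figures were drawn with matplotlib 3.10.9.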

Additional observations from a re-analysis of the deposited data

How the results depend on the processing

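By edgeR, 0 genes were called in TG against WT MoM with size factors, without the low-count filter, with only the 4 MoM libraries, and without each of the 8 libraries in turn or both WT replicate 1 and TG replicate 2. DESeq2 called 133 (67 higher, 66 lower), DESeq2 on only the 4 MoM libraries 198 (82 higher, 116 lower), DESeq2 without WT replicate 1 53 (38 higher, 15 lower) and DESeq2 without TG replicate 2 220 (66 higher, 154 lower); the last 3 settings were chosen after seeing the data. The interaction had 0 calls by edgeR in each setting run and 51 by DESeq2, and no fit with only the 4 MoM libraries could give it. The replicate number gives 0 calls as a block as well, and 2246 genes without overlap and shifted by at least 1, against 2202 in the main design. Deviations of same-numbered MoM libraries correlated at 0.125 across genes, and those of same-numbered Kupffer libraries at 0.271. With 2 pairs only, this cannot show whether same-numbered libraries share more than the number. That count of 2202 ranged from 2202 to 4035 when 1 library was left out (3777 without TG replicate 2, 4035 without WT replicate 2) and was 4054 without both WT replicate 1 and TG replicate 2, where fewer libraries have to be apart. Shares of shifts resting on a library stayed within 3 percentage points with size factors.

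Without both libraries the log2 fold change took the opposite sign for Clec4f (1.91), Pcolce2 (0.98), Kcnj16 (0.48), C6 (1.51), Folr2 (1.15), Cd5l (1.85), Cd163 (0.70), Marco (3.34), Ngp (-1.73), Camp (-0.67), Lcn2 (-1.33), Ltf (-0.66), Apoe (0.40), Timd4 (1.42), Vsig4 (0.66), Adgre1 (0.71), Ly6c2 (-0.39) and Itgam (-0.16), while Tgfbr2 had 0.52. Over the fits that leave out 1 library, values ranged from -2.96 to -0.05 for Apoe, from 0.18 to 4.17 for Ly6c2, from 0.09 to 1.47 for Itgam, from -5.40 to 1.36 for Clec4f, from -5.38 to 0.70 for Pcolce2, from -6.09 to 0.03 for Kcnj16, from -4.42 to 1.49 for C6, from -5.15 to 0.69 for Folr2, from -4.32 to 1.46 for Cd5l, from -5.25 to 0.23 for Cd163, from -2.33 to 3.04 for Marco, from -0.98 to 7.07 for Ngp, from -0.31 to 6.19 for Camp, from -0.51 to 6.81 for Lcn2, from -0.18 to 5.89 for Ltf, from -0.19 to 0.30 for Tgfbr2, from -3.62 to 1.23 for Timd4, from -4.70 to 0.46 for Vsig4, from -1.58 to 0.41 for Adgre1, from -0.40 to 0.19 for Cd68. DESeq2 called 42 of the 99 genes tracked and turned the sign of 0, and it called 133 of all 15254 genes. Many tracked genes were picked for a small p or a large ratio in these same counts. The 42 calls therefore do not back one another.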
